A study of Mus musculus with 14 samples.

Results

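LIM homeobox genes encode transcription factors that join a DNA-binding homeodomain to a pair of LIM domains, zinc-binding folds that hold partner proteins. The mouse has 12 of them in 6 pairs of related genes, and 10 have at least 1 line in the 6 lists of regions analysed here: Lhx1, Lhx2, Lhx4, Lhx6, Lhx8, Lhx9, Isl1, Isl2, Lmx1a and Lmx1b. They were taken by gene symbol and hold 23 of the 10679 lines, and the lists name 6687 genes in all. Because a gene without a line was left out of that choice, every count below is over the 12 genes of the family, with Lhx3 and Lhx5 as the 2 that have no line in any list.

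The lists come from ATAC-seq, which cuts open chromatin with the Tn5 transposase, on 500 sorted erythro-myeloid progenitors per sample from the yolk sac of C57BL/6 mouse embryos at E10.5. These progenitors are the yolk sac cells that make the early red and myeloid blood cells. All embryos, controls included, were Ezh2fl/fl. The 5 Tie2 KO samples also carried Tie2-CreTg/+, the 3 Vav KO samples carried Vav-CreTg/+, and the 3 Tie2 WT samples had no Cre transgene (Tie2-Cre+/+). A further 3 Vav WT samples (Vav-Cre+/+) are named in no list. Tie2 regulatory sequence drives Cre in endothelium and so also in the blood cells that arise from it, whereas Vav regulatory sequence drives it in blood cells. Vav KO was set against Tie2 WT, so the effects of Cre line and of genotype cannot be told apart there. In Tie2 KO against Tie2 WT the Cre transgene and the Ezh2 deletion go together, so their effects cannot be told apart either. Tie2 KO and Vav KO differ in the Cre transgene and in the cells where it is active, and these effects cannot be separated. Nothing in the labels says whether samples of a group came from separate embryos.

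Ezh2 is the enzyme of PRC2, a Polycomb complex that methylates histone H3 and keeps genes of other lineages silent. LIM homeobox genes are among the developmental genes that this complex is known to hold silent in cells that do not use them. They are best known from the nervous system, pituitary, heart, kidney and limb, where the set of LIM factors in a cell helps to fix its type. Their proteins work with the cofactor Ldb1, which links LIM domains to one another. In blood cells Ldb1 sits in a complex with Lmo2, a protein made of LIM domains without a homeodomain.

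Each list holds regions that the authors called as higher or lower in the first group of a comparison than in the second, and gives each region its log2 fold change with an adjusted p-value. A region is listed with a gene when it covers the gene start or ends within 4999 bp upstream of it, so most of the gene body and distant enhancers are not covered. The lists give no value per sample. Neither the depth of a sample nor the spread between replicates can be had from them, and the error of each value below is the adjusted p-value that the authors gave. No list has a line for Ezh2, so these files give no check of the deletion. Of 10 progenitor markers fixed for a check of the cell type, among them Kit, Runx1, Myb and Gata1, Csf1r has a line (Vav KO vs Tie2 WT, higher, and Tie2 KO vs Vav KO, lower). Lists of changed regions do not show whether the other 9 were open.

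In Tie2 KO against Tie2 WT, a higher region was listed for 9 of the 12 LIM homeobox genes and a lower one for 0. The reference table's protein-coding genes had a higher region in 11.5% and a lower one in 2.51% of cases in that comparison. The 9 genes were Lhx1, Lhx2, Lhx4, Lhx6, Lhx8, Lhx9, Isl2, Lmx1a and Lmx1b, with 10 regions between them. In Tie2 KO against Vav KO, 10 of 12 genes had a higher region and 0 a lower one, where the shares among protein-coding genes were 11.1% and 6.35%. The tenth gene was Isl1, and the other 9 were those of the first comparison. In Vav KO against Tie2 WT, 0 of 12 had a higher region and 0 a lower one, where the shares among protein-coding genes were 5.29% and 2.59%. At such shares 0 of 12 is close to the background and is no result about the family. The sources used here do not give the tool behind the authors' test, and the lists hold neither unadjusted p-values nor the regions that did not pass, so an unlisted gene is not shown to be unchanged. Any 2 of the comparisons share the samples of 1 group, so they are not independent repeats of each other.

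**Figure D1:**
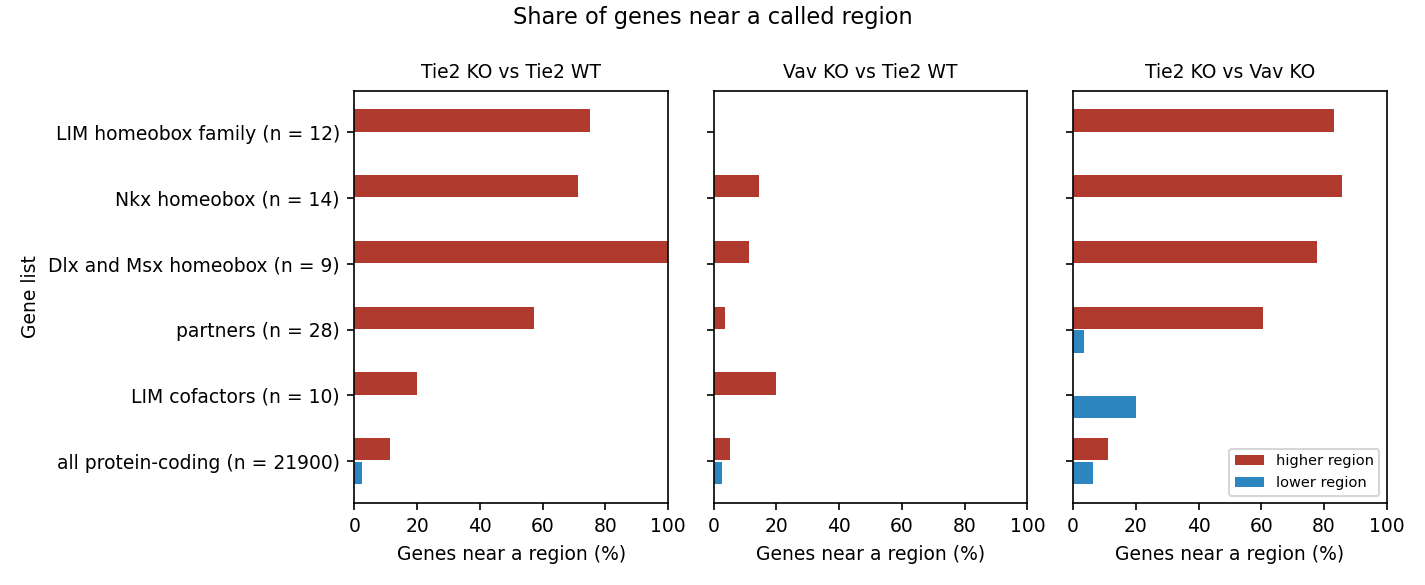
Share of genes (horizontal axis, %) with at least 1 higher (red) or lower (blue) region in each comparison, for the 12 LIM homeobox genes, 2 other homeobox groups, 28 partner genes, 10 cofactors and 21900 protein-coding genes. LIM homeobox genes stand at 75% and 83.3% in the comparisons of Tie2 KO and at 0% in Vav KO against Tie2 WT.

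Other homeobox families gave like counts in the same lists. Against Tie2 WT, 10 of 14 Nkx genes and 9 of 9 Dlx and Msx genes lay near a region higher in Tie2 KO. Against Vav KO these were 12 of 14 and 7 of 9. In Vav KO against Tie2 WT, 2 of 14 Nkx genes and 1 of 9 Dlx and Msx genes lay near a higher region. Over all protein-coding genes the shares were 11.5%, 11.1% and 5.29%, in the order of these comparisons. With so few genes, the counts of 2 and 1 are close to the last share and are no contrast with the LIM homeobox genes. None of the differences between families was tested.

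Among regions listed under a family member's own symbol, Lmx1a had the largest fold change in both comparisons. Its pair with Lmx1b is known for the midbrain, where both act in dopamine neurons, and Lmx1b also sets the dorsal side of the limb. At Lmx1a, on chromosome 1, a region from 167687602 to 167692100 covered the gene start and exceeded Tie2 WT in Tie2 KO at 1.59 (log2 fold change) in the authors' deposited table (adjusted p = 5.71e-06). A region from 167688802 to 167693300 was higher in Tie2 KO than in Vav KO at 1.87 in the authors' deposited table (adjusted p = 1.03e-05). Both regions were 4499 bp wide, and the second was shifted into the gene. Their fold changes stood above 90.1% and 88.8% of the higher regions of the respective lists. All regions listed with Lmx1b lay upstream of or over its start on chromosome 2, as the listing rule requires. Higher regions inside Lmx1b, listed with another gene only, are given below. Against Tie2 WT there was 1 region, from 33642402 to 33646500, which ended 1890 bp upstream of the start, at 1.03 (log2 fold change) in the authors' deposited table (adjusted p = 1.41e-07). The same stretch held 2 regions against Vav KO, with values of 0.92 and 1.39 in the authors' deposited table (adjusted p = 0.00047 and 9.59e-05). A further region, over the gene start, was at 1.17 in the authors' deposited table (adjusted p = 9.3e-05). With 3 regions listed under its own symbol against Vav KO, Lmx1b had the most of any LIM homeobox gene.

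Of the pair Lhx1 and Lhx5, Lhx1 alone has lines. Lhx1, needed in the embryo for the head and the kidney, had 2 higher regions in Tie2 KO against Tie2 WT on chromosome 11. The region over the gene start, from 84524602 to 84527100, was at 0.89 (log2 fold change) in the authors' deposited table (adjusted p = 0.000412). The region upstream, from 84527402 to 84529600, was at 1.51 in the authors' deposited table (adjusted p = 5.09e-06). Against Vav KO the region over the start (84524702 to 84526600) was at 0.75, the lowest value of the family, in the authors' deposited table (adjusted p = 0.00298), and the upstream region had no counterpart. Lhx5, a forebrain gene on chromosome 5, had no line, and no list holds a region of any gene within 50000 bp of it.

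Lhx2 and Lhx9 have overlapping roles in brain, limb and gonad, and loss of Lhx2 is known to impair eye, forebrain and blood formation in the fetal liver. At Lhx2, on chromosome 2, a region of 4599 bp over the gene start (38336302 to 38340900) exceeded Tie2 WT in Tie2 KO at 0.86 (log2 fold change) in the authors' deposited table (adjusted p = 6.76e-08). The same stretch was called against Vav KO as 2 regions. Upstream the log2 fold change was 1.13 and over the start it was 0.88 in the authors' deposited table (adjusted p = 5.83e-06 and 1.44e-06). At Lhx9, on chromosome 1, the called stretches of the comparisons did not meet. The region against Tie2 WT lay 1822 bp upstream of the gene start (138849402 to 138850700) at 1.09 in the authors' deposited table (adjusted p = 0.000167). The region against Vav KO ended 22 bp from the start given in the lists (138847602 to 138849200) at 0.97 in the authors' deposited table (adjusted p = 3.64e-05). A gap of 201 bp separated them.

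Of Lhx3 and Lhx4, which act together in pituitary and motor neurons, Lhx4 alone has lines. The Lhx4 region on chromosome 1 covered the start and reached 2225 bp into the gene (155739802 to 155742600), at 1.04 (log2 fold change) against Tie2 WT in the authors' deposited table (adjusted p = 6.53e-08). Against Vav KO a region of 1999 bp inside that stretch (155740102 to 155742100) was at 1.16 in the authors' deposited table (adjusted p = 5.99e-07), the lowest adjusted p of the family in that comparison. Lhx3, on chromosome 2, had no line, and the single listed region within 50000 bp of it was paired with Qsox2 in Vav KO against Tie2 WT.

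Lhx6 marks and guides cortical interneurons, and Lhx8 acts in cholinergic neurons of the forebrain and in oocytes. The Lhx6 region against Tie2 WT was the widest of the family. It ran over 5999 bp on chromosome 2 (36101402 to 36107400) from upstream of the start to 4006 bp into the gene, at 1.09 (log2 fold change) in the authors' deposited table (adjusted p = 2.14e-07). Against Vav KO only its upstream end was listed with Lhx6, over 1299 bp (36106102 to 36107400), at 0.94 in the authors' deposited table (adjusted p = 2.74e-05). A region wholly inside the gene would not be listed with Lhx6, so the rest of the stretch is not shown to be unchanged. At Lhx8, on chromosome 3, the stretch was nearly the same in both comparisons. Against Tie2 WT it ran from 154330202 to 154334600 at 1.11 in the authors' deposited table (adjusted p = 6.36e-08). Against Vav KO it ran from 154329902 to 154334600 at 1.03 in the authors' deposited table (adjusted p = 4.4e-05). These regions reached 4040 bp upstream of the start and 358 and 658 bp into the gene.

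Isl1 and Isl2 act in motor neurons, and Isl1 also in the second heart field and the pancreatic islets. Isl2, on chromosome 9, had a region over its start from 55539702 to 55542200 at 1.11 (log2 fold change) against Tie2 WT in the authors' deposited table (adjusted p = 1.31e-07). Against Vav KO the region began at the same base and ended at 55541300, at 1.06 in the authors' deposited table (adjusted p = 4.09e-05). Isl1, on chromosome 13, had 1 region, listed against Vav KO only. It lay 313 bp upstream of the start (116310002 to 116311100) at 1.01 in the authors' deposited table (adjusted p = 0.000169). Whether the change at Isl1 differs between the comparisons was not tested.

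**Figure D2:**
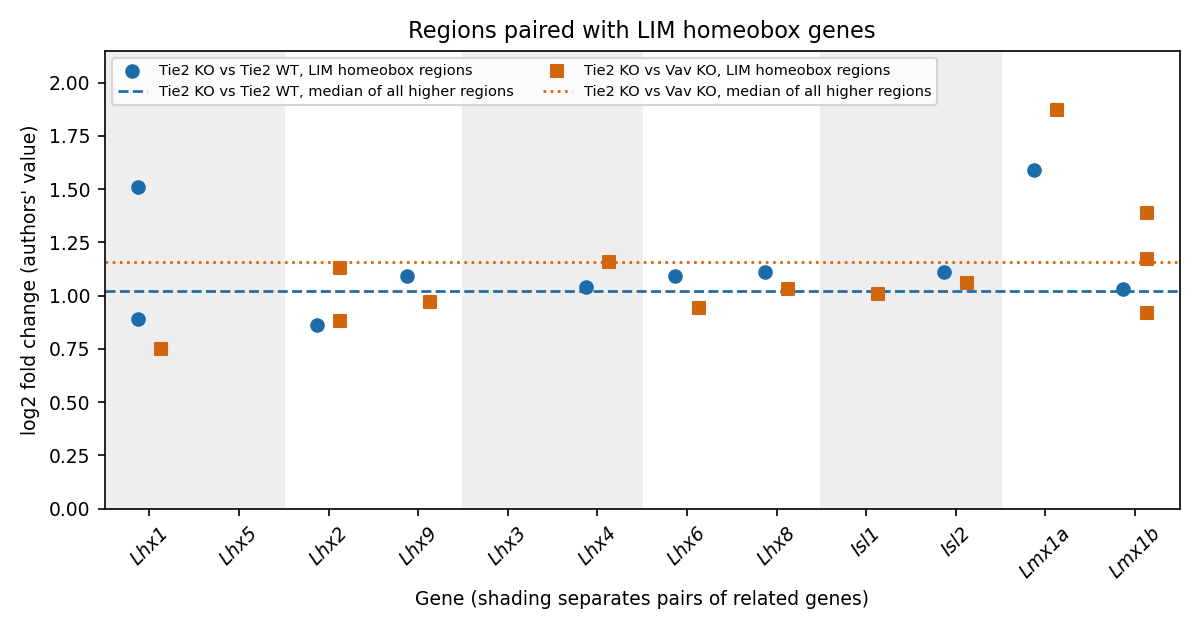
Log2 fold change of each region in the authors' deposited table (vertical axis) by gene (horizontal axis, related genes side by side), against Tie2 WT (blue circles) and against Vav KO (orange squares), with dashed and dotted lines at the medians of all higher regions, 1.02 and 1.16. Of these regions, listed under the members' own symbols, that of Lmx1a stands highest in both, at 1.59 and 1.87, and Lhx3 and Lhx5 have no point.

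Most of the fold changes lay between the quartiles of their list, 0.81 and 1.28 against Tie2 WT and 0.88 and 1.5 against Vav KO. Against Tie2 WT this held for 8 of 10 regions, with Lmx1a and the upstream region of Lhx1 above. Against Vav KO it held for 11 of 13, with Lmx1a above and Lhx1 below. Over the 10 regions against Tie2 WT the log2 fold change ranged from 0.86 to 1.59 with a median of 1.09, where all 2959 higher regions had a median of 1.02. Over the 13 regions against Vav KO it ranged from 0.75 to 1.87 with a median of 1.03, where all 2873 higher regions had a median of 1.16. In that comparison 3 of the 13 regions lay above the median of the list. With no replicate values, the order of the genes by fold change cannot be set against an error. By the authors' adjusted p-value, 6 of the 10 regions against Tie2 WT were among the first 500 of 2959 (Lhx8, Lhx4, Lhx2, Isl2, Lmx1b and Lhx6), as were 3 of 13 among 2873 against Vav KO (Lhx4 and both regions of Lhx2). The count of 3 of 13 is close to the share that 500 makes of 2873 and is no result about the family.

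With 9 and 10 of 12 genes listed, at least 3 and 4 of the 6 pairs of related genes must hold both, and the counts were no higher than that. Against Tie2 WT both genes of 3 pairs had a higher region (Lhx2 and Lhx9, Lhx6 and Lhx8, Lmx1a and Lmx1b) and 1 gene of the other 3. Against Vav KO the pair of Isl1 and Isl2 joined them, making 4 pairs, and 2 pairs had 1 gene.

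The regions of LIM homeobox genes were wider at the median than the lists they came from. Against Tie2 WT the median width was 3449 bp, against 1599 bp for all higher regions, and 9 of 10 were wider than that list median. At least 2000 bp wide were 9 of 10, as were 29.5% of the whole list. Against Vav KO the median width was 1899 bp, against 1299 bp for the list, with 10 of 13 above the list median and 4 of 13 (30.8%) at least 2000 bp wide, as were 18.2% of that list. A region over the gene start was listed for 7 of the 12 genes in each comparison, where the share among protein-coding genes was 7.11% against Tie2 WT and 5.42% against Vav KO. Such regions made up 70% of the 10 and 53.8% of the 13, compared with 55.6% and 43.8% of all higher regions in these lists. Width moved with that share in the whole lists. Of regions wider than the median of the list, 80.2% against Tie2 WT and 65.5% against Vav KO covered a start, compared with 33.8% and 23.9% of the others. At or below that median width 0 of 1 and 0 of 3 member regions covered a start. These positions use the gene starts of the lists. RefSeq sets the outer start of Lhx4 at 155751726, Isl2 at 55538677, Lmx1a at 167688230 and Lhx9 at 138848839. By those starts the regions of Lhx4 and Isl2 cover none, and Lmx1a is covered against Tie2 WT only. Lhx9 is then covered against Vav KO. The counts of regions over a start thus depend on the gene model.

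**Figure D3:**
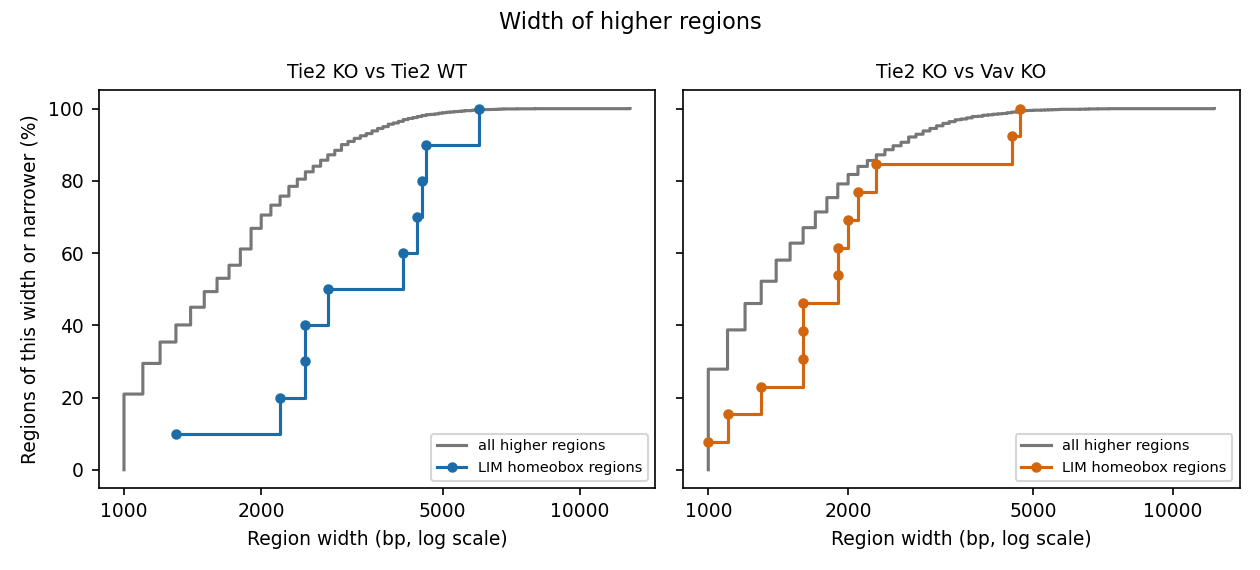
Cumulative share of regions (vertical axis, %) up to a given width (horizontal axis, bp, log scale) for all higher regions (grey) and for the LIM homeobox regions (coloured points), against Tie2 WT on the left and Vav KO on the right. The coloured curves lie to the right of the grey ones over most of their range, with medians of 3449 against 1599 bp and 1899 against 1299 bp.

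Regions of the comparisons that share Tie2 KO overlapped by at least 1 bp in 10 pairs at 8 genes. These pairs took in 8 of the 10 regions against Tie2 WT (80%) and 10 of the 13 against Vav KO (76.9%). Over the whole lists of higher regions the shares were 51% and 53.4%. The comparisons share the Tie2 KO samples, and whether the family differs from the lists was not tested. In 8 of the 10 pairs the region against Tie2 WT was the wider one, and in 1 pair, at Lmx1a, the widths were equal. The whole list of higher regions was also wider at the median against Tie2 WT, at 1599 bp, than against Vav KO, at 1299 bp. At Lhx2 and at Lmx1b the same region against Tie2 WT entered more than 1 pair, so the pairs are not separate. The fold change was larger against Vav KO in 5 of the 10 pairs, so neither comparison gave the larger values throughout.

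**Figure D4:**
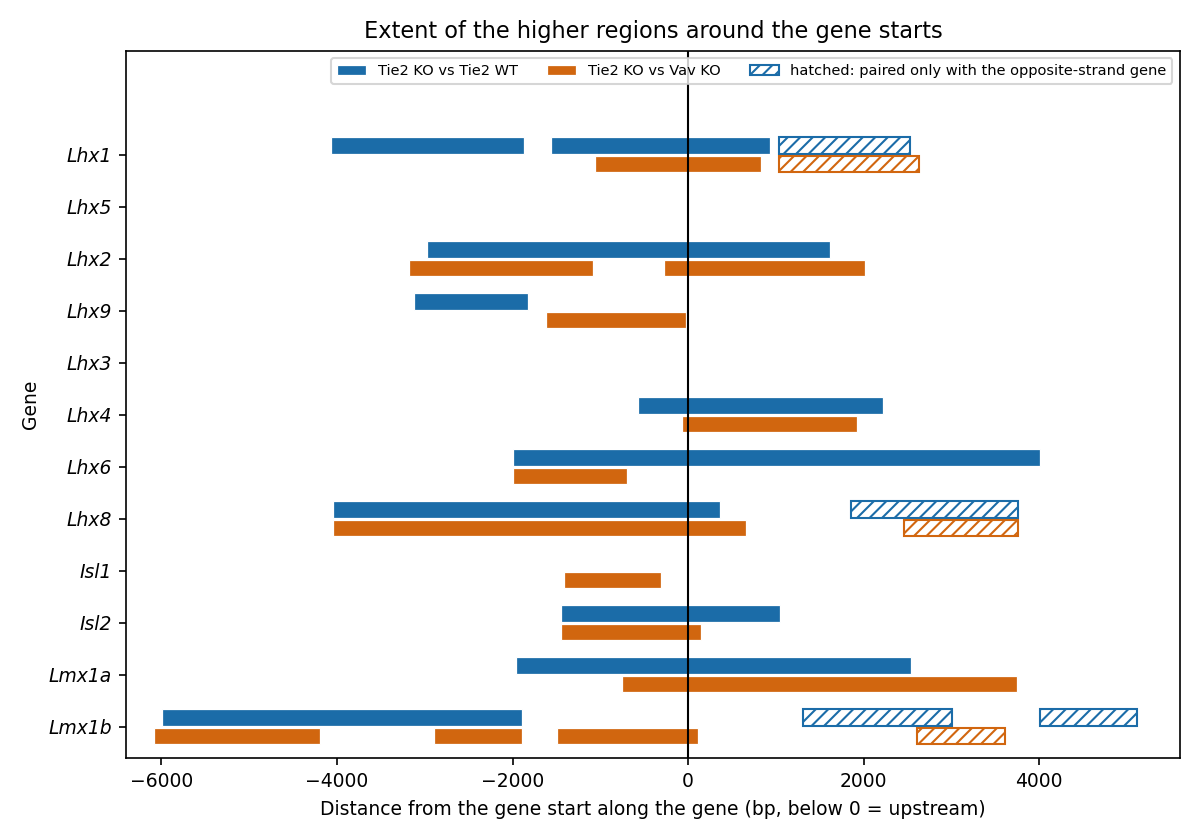
Extent of each higher region (horizontal bars) along the gene, in bp from the gene start at 0 with upstream below 0 (horizontal axis), for each gene (vertical axis), against Tie2 WT (blue) and Vav KO (orange); hatched bars are regions listed only with the noncoding gene on the opposite strand. The Lhx6 bar against Tie2 WT spans 5999 bp, the bars of Lhx9 do not overlap, and Lhx3 and Lhx5 have none.

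Noncoding genes on the opposite strand shared the region over the start of 3 members. Lhx1os, AI606473 and C130021I20Rik are long noncoding RNA genes that begin 126, 261 and 682 bp from the starts of Lhx1, Lhx8 and Lmx1b. Which gene of such a pair an open start belongs to cannot be told from these lists. Through these genes the lists also reach into the bodies of their LIM homeobox neighbours. Inside Lhx1, Lhx8 and Lmx1b lay 4 more regions higher than in Tie2 WT and 3 more higher than in Vav KO, all listed with the noncoding gene only. The largest, above any region listed with a member itself, was within Lmx1b from 33636902 to 33637900, at 2.24 (log2 fold change) against Vav KO in the authors' deposited table (adjusted p = 7.71e-05). Inside Lhx8 the values were 0.73 against Tie2 WT and 1.41 against Vav KO in the authors' deposited table (adjusted p = 0.000474 and 4.9e-05). Inside Lhx1 they were 0.96 and 0.84 in the authors' deposited table (adjusted p = 2.82e-06 and 6.52e-05). The 2 regions inside Lmx1b that were higher than in Tie2 WT were at 1.05 and 1.01 in the authors' deposited table (adjusted p = 4.41e-05 and 0.000467). The other 7 members share no listed region with another gene. Regions of other genes inside the bodies of these 7 were not searched for.

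Promoter sequences are shown for 3 members whose regions sat differently on the gene start. They are the 250 bases upstream of the start on the gene's strand, from RefSeq (GRCm38.p6), with each CpG dinucleotide in capitals, since Polycomb complexes are known to gather at CpG-rich DNA. The Lhx1 stretch (chr11:84525535-84525784, minus strand) and the Lhx8 stretch (chr3:154330561-154330810, minus strand) lay wholly inside higher regions. The Isl1 stretch (chr13:116309689-116309938, minus strand) ended 63 bp short of the Isl1 region.
Lhx1: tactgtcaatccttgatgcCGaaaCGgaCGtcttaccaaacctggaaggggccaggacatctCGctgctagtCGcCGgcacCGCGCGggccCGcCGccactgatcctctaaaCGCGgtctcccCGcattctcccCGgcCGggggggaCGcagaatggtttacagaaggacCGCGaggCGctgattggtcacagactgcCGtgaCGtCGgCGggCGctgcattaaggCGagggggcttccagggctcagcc
Lhx8: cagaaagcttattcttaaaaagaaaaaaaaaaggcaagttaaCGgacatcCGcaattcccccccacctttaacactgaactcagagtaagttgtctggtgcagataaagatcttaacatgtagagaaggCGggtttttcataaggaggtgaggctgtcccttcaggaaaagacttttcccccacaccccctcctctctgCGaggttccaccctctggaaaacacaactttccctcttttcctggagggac
Isl1: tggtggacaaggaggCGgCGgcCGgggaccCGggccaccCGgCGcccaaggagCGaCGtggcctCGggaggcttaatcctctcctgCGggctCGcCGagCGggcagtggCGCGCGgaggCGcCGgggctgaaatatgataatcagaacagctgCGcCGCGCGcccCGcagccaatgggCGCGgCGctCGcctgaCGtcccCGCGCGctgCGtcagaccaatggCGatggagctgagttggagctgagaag
These stretches hold 26 CpG dinucleotides at Lhx1, 33 at Isl1 and 4 at Lhx8. The most CpG-rich of them, at Isl1, was outside the called region, while the CpG-rich one at Lhx1 was inside. The CpG-poor one, at Lhx8, was inside a wide region in both comparisons. These 3 were picked by how their regions sat, and a link of CpG content to the regions was not tested.

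RefSeq gave 15 promoter windows of 300 bp, from 250 bp upstream to 50 bp into the gene, for 11 of the 12 family genes, all 10 members among them. For 8 members a window began from the same gene start as in the lists. Of these 8 windows, 7 were overlapped by a region higher than in Tie2 WT and 6 by one higher than in Vav KO. The Isl1 window was overlapped in neither, and the Lhx6 window in the first only. Over the 15 windows the number of CpG dinucleotides ranged from 4 to 37 with a median of 19, against a median of 13 over 21263 windows of protein-coding genes, and 10 of 15 lay above that median. Motifs were searched on both strands. CGCG, made of adjacent CpG dinucleotides, was in 13 of 15 windows and in 49.2% of all windows. AGATAA, which Gata factors bind, was in 2 of 15, at Lhx8 and Isl1, and in 9.65% of all windows. TAATTA, a core that many LIM homeodomains bind, was in 0 of 15 and in 4.53% of all windows, and TGTGGT, a RUNX motif, in 0 of 15 and in 15% of all windows.

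**Figure D5:**
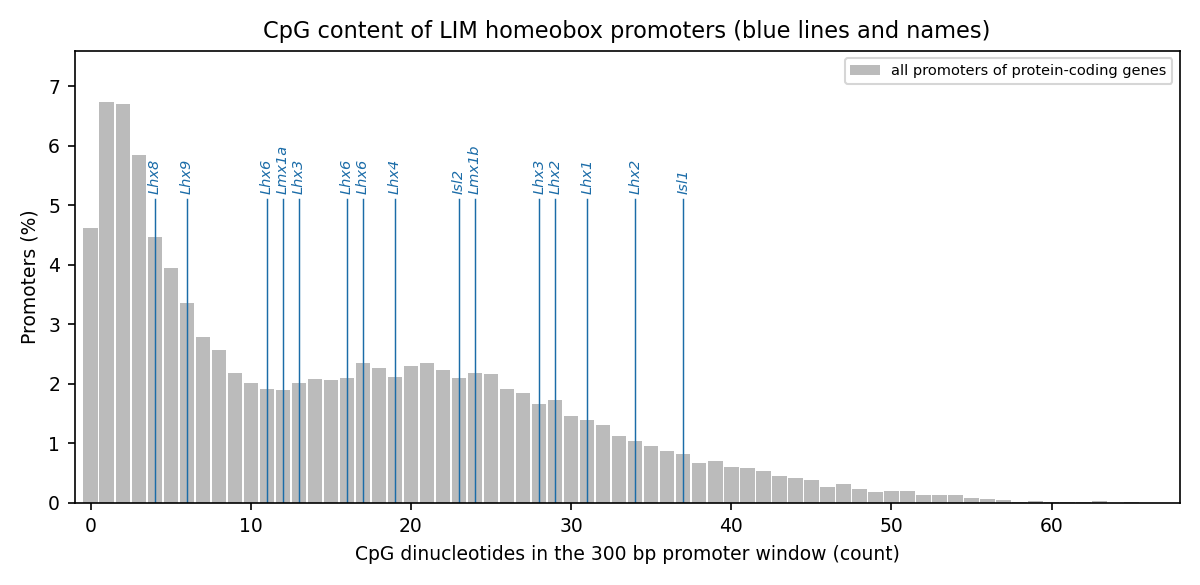
Share of promoter windows (vertical axis, %) by number of CpG dinucleotides in 300 bp (horizontal axis) for 21263 windows of protein-coding genes (grey bars), with the 15 LIM homeobox windows as blue lines of equal, arbitrary height. They spread from 4 at Lhx8 to 37 at Isl1.

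LIM domain proteins act through a small set of cofactors. Of 10 cofactor genes (Ldb1, Ldb2, Ssbp2, Ssbp3, Ssbp4, Rlim and Lmo1 to Lmo4), 2 lay near a region that was higher in Tie2 KO than Tie2 WT and 0 near a lower one. Against Vav KO the counts were 0 higher and 2 lower, and in Vav KO against Tie2 WT they were 2 higher and 0 lower. With 10 genes, counts of 0 to 2 are close to the shares over all protein-coding genes (11.5%, 11.1% and 5.29% for higher and 2.51%, 6.35% and 2.59% for lower regions, in the order of these comparisons) and are no result about the cofactors. The values that follow describe single regions. Lmo1, a LIM-only gene of the nervous system, was higher over its start in both knockouts than in Tie2 WT, at 0.72 and 0.68 (log2 scale) in the authors' deposited table (adjusted p = 7.75e-07 and 6.88e-05). Ldb2, a relative of Ldb1, exceeded Tie2 WT in Tie2 KO at 0.67 in the authors' deposited table (adjusted p = 0.000801). Lmo4 was higher in Vav KO than in Tie2 WT at 2.1, upstream of its start, in the authors' deposited table (adjusted p = 7.16e-05). Ldb1 and Lmo2, which work in the same blood complex, were lower in Tie2 KO than in Vav KO, at -1.36 and -0.69 in the authors' deposited table (adjusted p = 5.55e-05 and 0.000232). The Ldb1 region lay 3990 bp upstream of the gene start and the Lmo2 region covered it.

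Among 28 genes that act upstream of, beside or after LIM homeobox factors in motor neurons, heart, pituitary, head, forebrain, midbrain and limb, 16 lay near a region that was higher in Tie2 KO than Tie2 WT and 0 near a lower one. The counts against Vav KO were 17 higher and 1 lower. In Vav KO against Tie2 WT 1 lay near a higher region, Neurog2 at 0.90 (log2 fold change) in the authors' deposited table (adjusted p = 0.000339). Over all protein-coding genes the shares were 11.5%, 11.1% and 5.29% for higher regions, in the order of these comparisons. For lower regions they were 2.51% against Tie2 WT and 6.35% against Vav KO. The counts of 0 and 1 are close to these shares and are no result about the partners. Nkx2-1 and Nkx6-1 are also among the Nkx genes counted above. Among the largest values against Tie2 WT in the authors' deposited table were 2.25 at Gsx2, a forebrain homeobox gene, 1.85 at Mnx1, a motor neuron gene, and 1.54 at En1, a midbrain and limb gene. Against Vav KO they were 2.39 at En1, 2.14 at Gsx2, 1.80 at Mnx1 and 1.76 at Tbx20, a heart gene, in the authors' deposited table. Tbx1, another heart gene, had 1 lower region against Vav KO, at -1.20 in the authors' deposited table (adjusted p = 1.89e-05), and 1 higher region, at 1.11 (adjusted p = 0.000147), and these overlapped by 199 bp, so the same bases were called in both directions.

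Some genes used as markers of other cells also had regions in these lists. Of 5 neural markers, 3 lay near a region that was higher in Tie2 KO than Tie2 WT (Sox1, Sox2 and Elavl3) and 4 against Vav KO, where Tubb3 joined them. Of 5 mesoderm and mesothelium markers, 4 were near higher regions against Tie2 WT (Hand1, Pdgfra, Twist1 and Wt1) and 3 against Vav KO, and Pdgfra also had a lower region in Vav KO against Tie2 WT, at -1.57 in the authors' deposited table (adjusted p = 0.000634). Of 5 endothelium markers, 2 lay near a higher region against Tie2 WT (Cdh5 and Tek) and 1, Pecam1, near a lower one, and against Vav KO 2 lay near a higher one (Kdr and Tek). Tek encodes Tie2, and its regions, 12899 and 12299 bp wide, were the widest of these lists, at 2.90 and 2.92 in the authors' deposited table (adjusted p = 0.00132 and 0.000921). Reads from the regulatory sequence in the Tie2-Cre transgene and reads from Tek itself cannot be told apart there, so Tek is no clean endothelium marker in these comparisons. Of 5 yolk sac endoderm markers (Afp, Apoa1, Ttr, Hnf4a and Cubn), 0 lay near a region of any list. The shares over all protein-coding genes were 11.5% against Tie2 WT and 11.1% against Vav KO for higher regions, and 2.51% and 6.35% for lower ones. In Vav KO against Tie2 WT they were 5.29% for higher and 2.59% for lower regions. Lists of 5 genes give coarse counts, and counts of 0 or 1 are close to these shares and are no result about the markers. Their part in the LIM homeobox result was not tested.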

How the data were processed

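The 6 deposited lists hold regions that the authors called as differing in 3 comparisons of ATAC-seq samples, paired with genes, in mm10. Per the file headers, each deposited region has its log2 fold change with an adjusted p-value. The submitters' processing notes name MACS2 2.1.2, HOMER 4.10, SAMtools 1.3.1, Bowtie2, Picard and FastQC without their roles. The sources used here do not give the scaling, the treatment of Tn5 shift and duplicates, or the test, and each could change which regions were called. The group abbreviations in the names of the lists (TKO, VKO and TWT) were taken to stand for Tie2 KO, for Vav KO and for Tie2 WT. Over the lists no absolute log2 fold change was under 0.58 and no adjusted p-value over 0.0479.

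Lines were selected by symbol and checked by gene identifier, of which 6679 of 6687 matched RefSeq genes of GRCm38.p6. Gene starts are those of the lists, and 88.8% of matched genes had a start within 1000 bp of the RefSeq one. Lhx4, Lhx9, Isl2 and Lmx1a did not. Counts, medians, overlaps and motif counts were computed with Python 3.11.15 and pandas 2.3.3, after a test of the functions on simulated data. No test across samples was possible. The members and lists were chosen with earlier results of these data known. Named genes are all family members, every cofactor with a region, up to 4 partner genes per comparison and direction by absolute fold change, and genes sharing a member's region. One gene that this rule names is not reported here. Tbx1's higher region and the markers were named outside that rule. Alternatives were stricter fold change or adjusted p thresholds, regions over the gene start, regions of 1 gene, the nearest region per gene, narrower regions and stricter overlap.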

Additional observations from a re-analysis of the deposited data

How the results depend on the processing

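With an absolute log2 fold change of at least 1, an adjusted p-value under 0.01, regions over the gene start only or regions paired with 1 gene only, the number of LIM homeobox genes near a higher region was 7 to 9 against Tie2 WT and 7 to 10 against Vav KO. The share of all protein-coding genes under these settings was 6.21% to 11.5% and 5.42% to 10.9%. These 4 settings only remove regions. The counts of 0 near a lower region, and near any region in Vav KO against Tie2 WT, therefore could not change and were not checked by them. Lhx2 was the gene lost from the comparison with Tie2 WT at the stricter fold change. The median log2 fold change lay between 1.02 and 1.09 under the 3 settings tried for it in both comparisons. Among regions up to the median width of the list, the share over a gene start was 0% in both comparisons, with 1 and 3 regions left. Pairs of overlapping regions numbered 5 with the overlap covering at least 50% of both regions and 0 with identical start and end. No paired analysis was possible because the lists hold no value per sample, and leaving out a replicate was not possible for the same reason. Depth per sample is unknown, so genes that are not listed are not called unchanged here.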

Other observations

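The distance of LIM homeobox genes from other protein-coding genes was measured as well, with no test. In RefSeq (GRCm38.p6) the median distance from a family gene to the nearest protein-coding gene was 13645 bp, against 5285 bp over 21887 genes, and 7 of 12 were at least 10 kb from one (58.3%, against 38.1%). Isl1 was the most isolated, at 541153 bp, and Lhx3, which has no line in any list, the least, at 874 bp. Lhx5, the other gene without a line, was at 16735 bp. Of the 10 members, 3 were on chromosome 1 (Lhx4, Lhx9 and Lmx1a) and 3 on chromosome 2 (Lhx2, Lhx6 and Lmx1b).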
